A study of Mus musculus with 8 samples.

Results

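The miR-29 family of microRNAs (miRNAs) was followed in the liver of mice treated with carbon tetrachloride (CCL4), a hepatotoxin that causes fibrosis, and of mice given its vehicle, olive oil. The members were taken by name from the array annotation, and 4 of the 567 mouse miRNAs on the array were used: mmu-miR-29a, mmu-miR-29b, mmu-miR-29c and mmu-miR-29c*, the star strand from the other arm of the miR-29c hairpin. The mice were adult (8-week-old) C57BL/6J males without a genetic modification given in the sources used here, injected into the peritoneum, more often in the early weeks than later, and killed at 4, 6 or 8 weeks. Total liver RNA of CCL4 mice was hybridized to 5 single-colour arrays, 1 at 4 weeks and 2 each at 6 and 8 weeks. RNA of olive oil mice was hybridized to 3 arrays, 1 for each of these weeks. Each array may hold RNA from 1 mouse or from several, which was not stated, so n counts arrays, and p-values measure the spread between arrays.

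A miRNA is cut from a hairpin precursor, and its seed (bases 2 to 8 from the 5′ end) pairs with sites in messenger RNAs, which are then repressed. The miR-29 family is known for sites in many collagen mRNAs and in those of other matrix proteins such as elastin and fibrillin. In liver it is made in hepatocytes and in stellate cells, the cells that lay down collagen in fibrosis, and transforming growth factor beta is known to lower it in stellate cells. The arrays measured miRNAs only, so the collagen targets were not analysed here.

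The mature sequences below, from RefSeq (GRCm38.p6), are given because the first 3 members share their seed and the star strand does not. Capitals mark the seed.
miR-29a: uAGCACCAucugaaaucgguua
miR-29b: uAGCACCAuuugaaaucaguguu
miR-29c: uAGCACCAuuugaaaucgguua
miR-29c*: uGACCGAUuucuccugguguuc
The seed AGCACCA was found in 3 of the 1679 mature mouse miRNAs of the RefSeq table (0.179%), which were miR-29a, miR-29b and miR-29c themselves. The seed of miR-29c* was found in 1 of them. With positions numbered from 1 at the 5′ end and the miR-29a base first, miR-29c differed from miR-29a by C10U, its only difference over 22 bases. With the miR-29c base first, miR-29b differed from miR-29c by G18A, U21G and A22U and had 1 more base at its 3′ end. How far probes for such similar strands cross-hybridize was not tested.

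The family comes from 2 loci. In RefSeq (GRCm38.p6), the hairpin Mir29a lies on the minus strand of chromosome 6 from 31062660 to 31062747, and Mir29b-1 lies 275 bp away, from 31063023 to 31063093. On the plus strand of chromosome 1, Mir29b-2 lies from 195037040 to 195037120 and Mir29c from 195037547 to 195037634, 426 bp apart. Both miR-29b hairpins give the same mature strand, so the miR-29b signal sums over both loci, whereas miR-29a and miR-29c each report on 1 locus. The array annotation, in build mm9, places the miR-29a probes on chromosome 6 from 31012673 to 31012692. It places those of miR-29b on chromosome 1 from 196863287 to 196863307, those of miR-29c from 196863794 to 196863815 and those of miR-29c* from 196863757 to 196863777.

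Each member was read by 2 probes with 10 spots each, and the scanner software summed them into a gene signal after background subtraction. Before any scaling, the miR-29a signal was 1308 at 4 weeks, 1102 and 1596 at 6 weeks and 2401 and 2030.1 at 8 weeks with CCL4. With olive oil it was 1369, 1471 and 1959.9 in the same weeks. The olive oil array lay above the CCL4 array at 4 weeks, between the pair at 6 weeks and below both at 8 weeks, and the treatment groups overlapped.

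The miR-29b signal was 812, 616, 917, 1537 and 1283 with CCL4 in the same order, and 852, 809 and 1112 with olive oil. The treatment groups overlapped here too, with both CCL4 arrays of 8 weeks above the olive oil array of that week. The miR-29c signal was 463, 487, 774, 1263 and 1037 with CCL4, and 739, 766 and 986 with olive oil. At 4 weeks miR-29c was at 463 in the CCL4 liver and 739 in the control liver, while the miR-29a signals of the same arrays were 1308 and 1369. In all 3 members the CCL4 arrays of 8 weeks had the highest signals of the series.

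The star strand was dim. Its signal was 8.76, 10.1, 11, 13.1 and 15.8 with CCL4, and 8.88, 10.6 and 13.2 with olive oil. The software called miR-29a, miR-29b and miR-29c detected on all 8 arrays, and miR-29c* on 3 of 5 CCL4 and 2 of 3 olive oil arrays. It was not detected on either array of 4 weeks or on the first CCL4 array of 6 weeks. The star strands miR-29a* and miR-29b* were not detected on any of the 8 arrays.

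**Figure D1:**
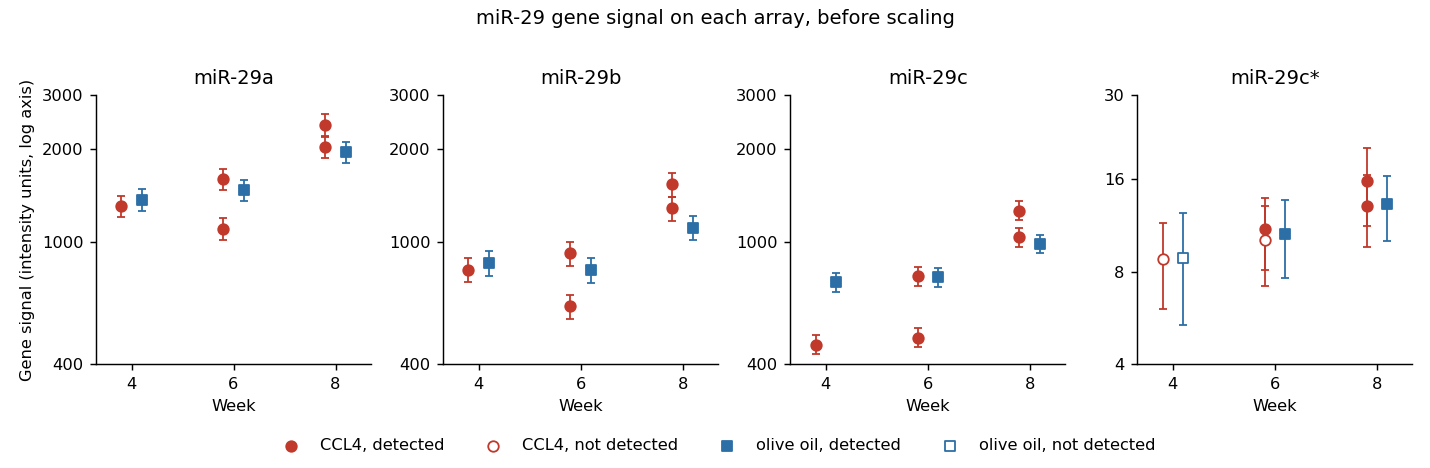
Gene signal of each miR-29 member on each array before scaling (log axis, intensity units) by week, with the error the scanner software gives as bars; CCL4 arrays are circles, olive oil arrays squares, and open symbols were not called detected. The groups overlap for every member, and the widest gap at 4 weeks is that of miR-29c, at 463 against 739.

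The scanner software put the error of a gene signal at 7.96% to 8.08% for miR-29a, 9.11% to 9.16% for miR-29b and 7.09% to 7.12% for miR-29c. For miR-29c* it was 24.0% to 39.7%. No spot of the family was saturated.

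To compare arrays, signals were expressed relative to the 75th percentile over all 567 mouse miRNAs of that array, on the log2 scale. This percentile was 9.5, 6.53, 7.55, 11 and 8.68 with CCL4, and 5.11, 4.71 and 6.48 with olive oil. It was thus higher on the CCL4 array or arrays of each week, and it lay near the lowest signal called detected (5.59 to 8.16 on 7 arrays, 0.139 on the CCL4 array of 4 weeks). Between 117 and 158 miRNAs were detected per array.

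On this scale all 4 members fell in CCL4 liver over all weeks. Scaled miR-29a was 7.57 ± 0.32 (log2, SD, n = 5 CCL4 arrays) against 8.20 ± 0.12 (SD, n = 3 olive oil arrays). With week in the model its log2 fold change was -0.68 (95% interval -1.03 to -0.32, limma adjusted p = 0.0135), a level 0.624 times that of the controls. Scaled miR-29b was 6.85 ± 0.35 and 7.41 ± 0.02, with a log2 fold change of -0.60 (-0.99 to -0.22, adjusted p = 0.0209). Scaled miR-29c was 6.45 ± 0.54 and 7.26 ± 0.09, and its log2 fold change of -0.89 was the lowest of the 4 members (-1.36 to -0.42, adjusted p = 0.0135). The star strand miR-29c* was at 0.43 ± 0.38 and 1.00 ± 0.19, with -0.64 (-1.03 to -0.24, adjusted p = 0.0209). Its values include both arrays of 4 weeks and the first CCL4 array of 6 weeks, on which miR-29c* was not detected.

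Of all 133 miRNAs tested, 35.3% were called lower in this comparison, and 13.5% were called higher, so a fall was the common direction. For miR-29a, miR-29b and miR-29c every CCL4 array was below every olive oil array, as for 43.6% of the miRNAs tested. For miR-29c* the treatment groups overlapped. In all 4 members 5 of 5 CCL4 arrays lay below the olive oil array of their week, as for 51.9% of the miRNAs tested. The 113 miRNAs detected on every array had a median log2 fold change of -0.36, and relative to it miR-29a was at -0.32, miR-29b at -0.25 and miR-29c at -0.53. From the lowest fold change up, miR-29c was rank 1 of these 113, miR-29a rank 7 and miR-29b rank 16.

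Single arrays decided some of these calls. The miR-29c call was kept without any 1 of the 8 arrays, with log2 fold changes from -1.18 to -0.64. The miR-29a call was lost without the olive oil array of 4 weeks (-0.57, limma adjusted p = 0.0592) or of 6 weeks (-0.65, 0.0591). The miR-29b call was lost without the CCL4 array of 4 weeks (-0.47, 0.0976) and without the olive oil array of 4 weeks (-0.47, 0.113) or 6 weeks (-0.56, 0.0892). The miR-29c* call was lost without the CCL4 array of 4 weeks (-0.53, 0.0636), the first CCL4 array of 8 weeks (-0.56, 0.0687), and the olive oil array of 4 weeks (-0.53, 0.0753) or 6 weeks (-0.66, 0.0591).

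**Figure D2:**
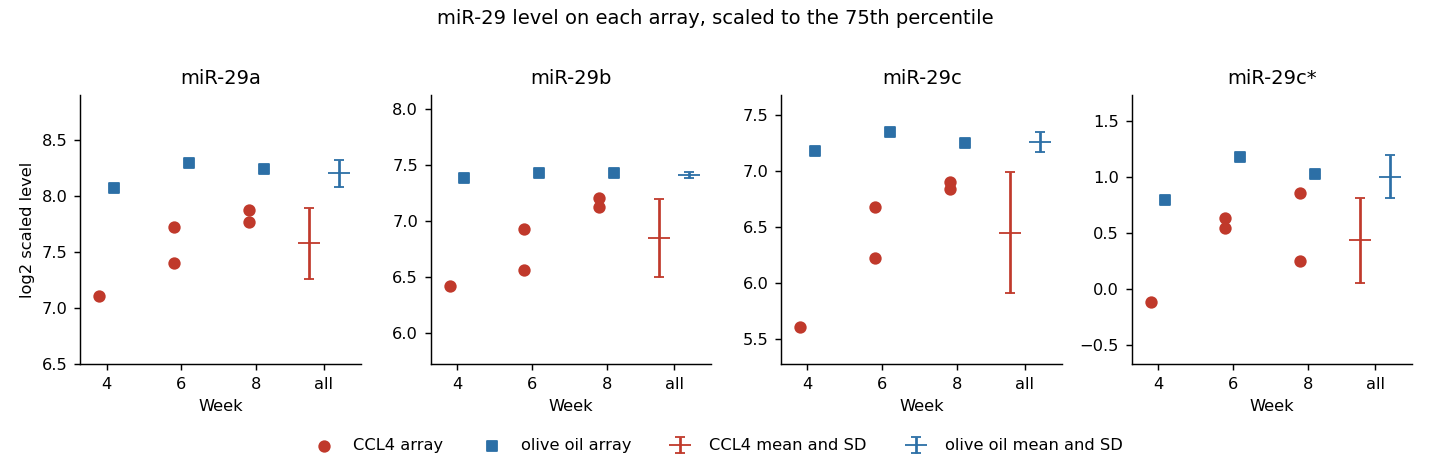
Scaled log2 level of each miR-29 member by week, with CCL4 arrays as circles, olive oil arrays as squares, and the mean and SD over all weeks at the right of each panel. Each panel spans 2.4 log2 units; the CCL4 arrays lie below all olive oil arrays for miR-29a, miR-29b and miR-29c, and the groups overlap for miR-29c*.

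The comparison of treatments at each week asked whether the family moved early or late in the course of fibrosis. At 4 weeks, with 1 array per treatment, scaled miR-29c was at 0.337 times the control level (limma adjusted p = 7.546e-05). Scaled miR-29a and miR-29b were at 0.514 and 0.513 times (0.0123 and 0.0122). In that week 33.1% of the miRNAs tested were called lower. The fit gave every miRNA the same standard error (0.328 on the log2 scale at that week), taken from the CCL4 pairs of the later weeks. These p-values therefore hold no spread of a member at 4 weeks and none among controls, and they assume that single arrays vary as those pairs did. At 6 weeks miR-29c was at 0.538 times the control (adjusted p = 0.0217), where 3.01% were called lower, while miR-29a was at 0.604 times (0.0817) and miR-29b at 0.623 times (0.103). At 8 weeks miR-29a, miR-29b and miR-29c were at 0.747, 0.837 and 0.770 times the control, and none passed (adjusted p = 0.544, 0.758 and 0.586), where 0.752% were called lower.

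Because miR-29c* was not detected on either array of 4 weeks, no fold change is given for that week. It was at 0.666 times the control at 6 weeks and at 0.718 times at 8 weeks, with adjusted p of 0.130 and 0.469 from limma, and 1 of the 2 CCL4 arrays behind the 6-week value did not detect it. The calls of miR-29a and miR-29b at 4 weeks were lost without either CCL4 array of 8 weeks (adjusted p = 0.0611 and 0.0606 for both), although these arrays do not enter that difference. The call of miR-29c at 6 weeks was lost in the same way (0.146 and 0.148). At 6 weeks miR-29a passed without the first CCL4 array of that week (-0.56, adjusted p = 0.0476) or the second (-0.89, 0.00183), and miR-29b without the second (-0.86, 0.00233). The miRNAs called lower in that week then numbered 12 of 131 without the first and 72 of 128 without the second, against 4 of 133 with both.

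A test of whether the treatment difference itself changed between weeks called none of the members. The adjusted p of the limma interaction test was 0.191 for miR-29c, 0.684 for miR-29b and 0.806 for miR-29a and miR-29c*, and 6.02% of the miRNAs tested were called. For miR-29c it depended on single arrays and reached 0.00158 or 0.00269 when 1 CCL4 array of the 6-week pair was left out, where 29 of 131 and 29 of 128 miRNAs were called.

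Relative to the median of the 113 miRNAs detected on all arrays, the week differences do not depend on any scale that gives each array 1 factor. On this footing miR-29c was at -1.01 (log2) in week 4, -0.45 in week 6 and -0.24 in week 8. Its place from the lowest difference was rank 1, rank 2 and rank 14 of 113. For miR-29a the values were -0.40, -0.28 and -0.28, with ranks 24, 8 and 9. For miR-29b they were -0.40, -0.23 and -0.12, with ranks 23, 9 and 29. These are descriptions without a test, and the olive oil group had 1 array in each week.

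**Figure D3:**
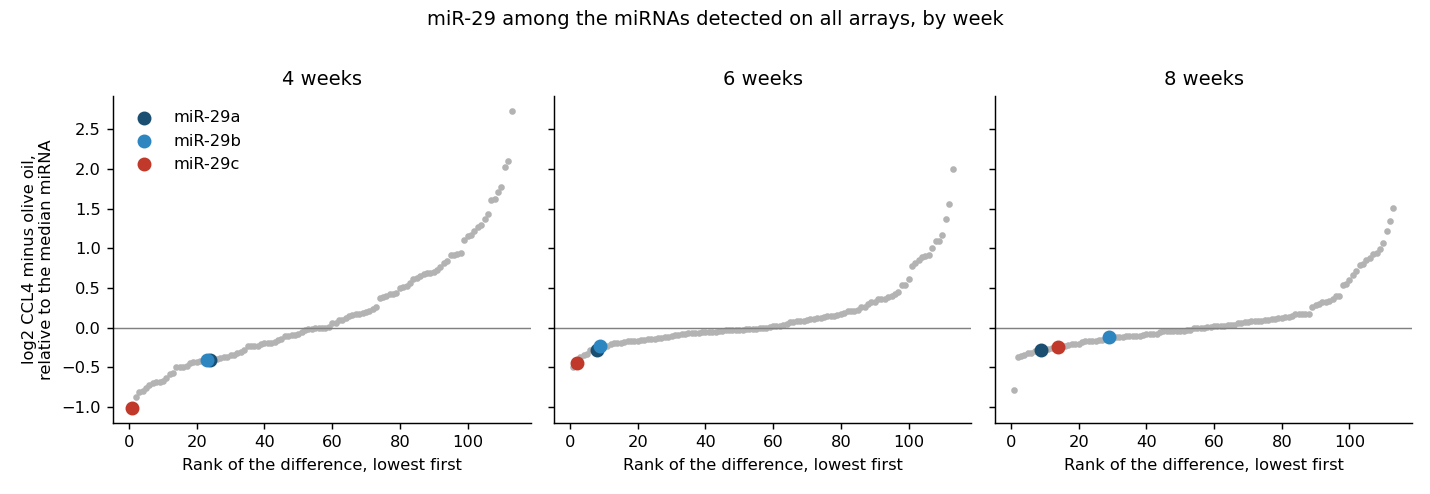
Differences between CCL4 and olive oil arrays at 4, 6 and 8 weeks for the 113 miRNAs detected on all arrays, ranked from the lowest and drawn relative to their median (log2); grey points are the other miRNAs. At the scale used here all 3 members lie below the median in each week, and miR-29c goes from rank 1 at 4 weeks to rank 14 at 8 weeks.

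Whether the members fell in absolute signal depended on the scale. Without scaling, the log2 fold changes over all weeks were -0.01 for miR-29a, 0.06 for miR-29b, -0.22 for miR-29c and 0.03 for miR-29c*, and none passed (limma adjusted p = 0.971, 0.856, 0.547 and 0.912). Only 2 of 5 CCL4 arrays were then below the olive oil array of their week for miR-29a, miR-29b and miR-29c, and 3 of 5 for miR-29c*. The median of the 113 miRNAs was 0.31 without scaling, and 0% of the miRNAs tested were called lower and 25.6% higher. When only miRNAs detected on all arrays entered the 75th percentile, miR-29a, miR-29b and miR-29c passed (-0.48, -0.40 and -0.69, adjusted p = 0.0215, 0.0487 and 0.0200) where 7.52% were called lower, and miR-29c* did not (-0.44, 0.105). With the median of these miRNAs as the scale all 4 members passed, and 51.9% of the miRNAs tested were called lower. Scaled by the control features of the array, none passed (-0.24, -0.16, -0.45 and -0.19, with 0.752% called lower).

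Quantile normalization and cyclic loess, which reshape the signals by their rank or brightness, separated the members. Under quantile normalization miR-29a was at -0.09 and miR-29b at -0.03, miR-29c was at -0.56 (limma adjusted p = 0.128), and miR-29c* passed at -0.69 (0.0389), where 12.8% were called lower. Under cyclic loess miR-29c at -0.41 and miR-29c* at -0.56 just passed (adjusted p = 0.0490 and 0.04996), where 13.5% were called lower, and miR-29a at -0.16 (0.0504) and miR-29b at -0.11 (0.147) did not. In each of these 7 scales miR-29c was below miR-29a and miR-29b. A scale that gives each array 1 factor cannot change that order, so only quantile normalization and cyclic loess could have changed it. The calls of these scales share all 8 arrays.

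**Figure D4:**
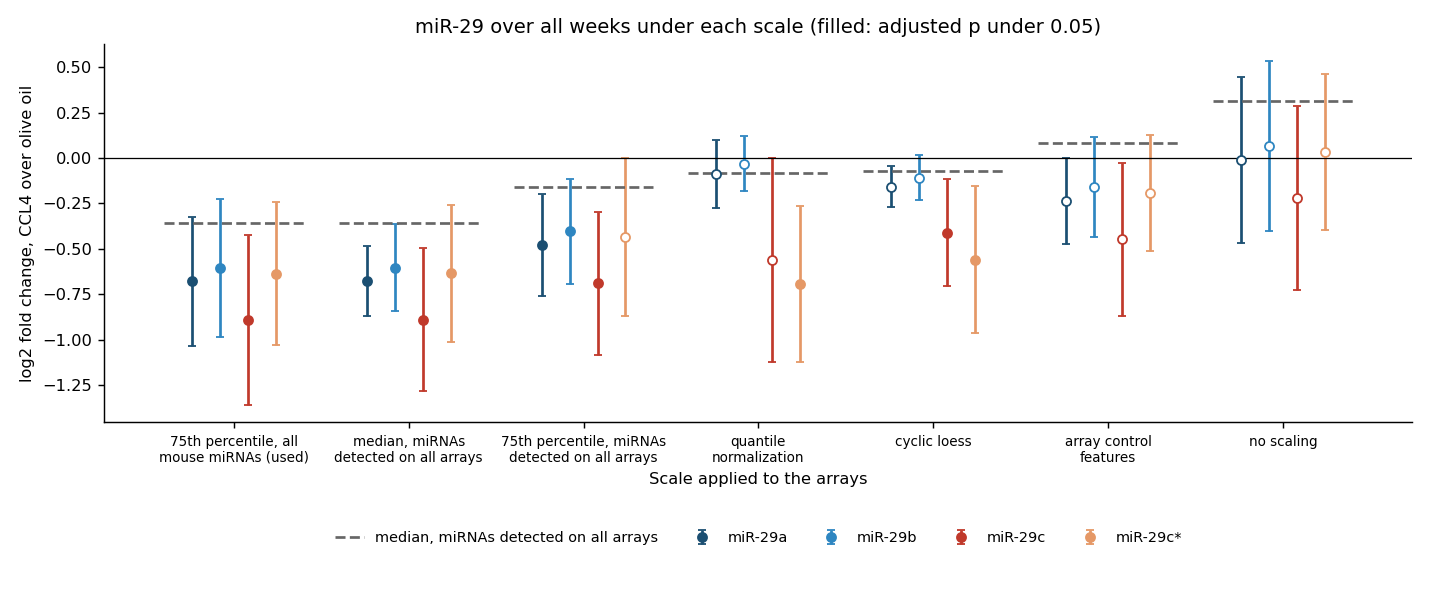
Log2 fold change of each miR-29 member over all weeks, with its 95% interval from limma, under 7 ways of scaling the arrays; filled points have an adjusted p under 0.05 and dashed lines give the median of the 113 miRNAs detected on all arrays. From the scale used here to no scaling, the fold change of miR-29a goes from -0.68 to -0.01. The fold change of miR-29c is below those of miR-29a and miR-29b under each scale, an order that only quantile normalization and cyclic loess could change.

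The log2 difference between 2 members on the same array does not depend on a scale that gives each array 1 factor. Its change with treatment shows whether the members moved unequally. The difference miR-29c minus miR-29b was -0.81 with CCL4 at 4 weeks, -0.34 and -0.24 at 6 weeks and -0.28 and -0.31 at 8 weeks. With olive oil it was -0.21, -0.08 and -0.17 in these weeks. Every CCL4 array was below every olive oil array. The mean was -0.40 ± 0.23 (SD, n = 5) against -0.15 ± 0.07 (SD, n = 3), a change of -0.24 (two-sided exact permutation p = 0.0357, the smallest that 56 splits allow, and 0.143 adjusted over 4 pairs). The splits exchanged arrays between weeks, so week was not held fixed in this test. By week the change was -0.61, -0.21 and -0.12 at 4, 6 and 8 weeks. Without the CCL4 array of 4 weeks the change was -0.14 and the groups still did not overlap (exact p = 0.0571, the smallest then possible). How many other pairs of miRNAs separate in this way was not tested.

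The other pairs of main strands gave smaller changes. The difference miR-29c minus miR-29a was -1.12 ± 0.23 (SD, n = 5) with CCL4 and -0.94 ± 0.05 (SD, n = 3) with olive oil, a change of -0.18 (exact permutation p = 0.179, adjusted 0.357). By week the change was -0.61, -0.17 and 0.04 at 4, 6 and 8 weeks, and without the CCL4 array of 4 weeks it was -0.09 overall. The difference miR-29b minus miR-29a, between strands that share the chromosome 6 locus in part, was -0.73 ± 0.09 and -0.79 ± 0.09, a change of 0.06 (exact permutation p = 0.286, adjusted 0.381). A p above the threshold does not show that these members moved alike, and with 5 against 3 arrays no pair could fall below an adjusted p of 0.0357.

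Between miR-29c and its star strand, which come from 1 precursor, the difference miR-29c* minus miR-29c was -6.02 ± 0.39 (SD, n = 5) with CCL4 and -6.26 ± 0.11 (SD, n = 3) with olive oil. The change of 0.24 was within the spread of the CCL4 arrays (exact permutation p = 0.393, adjusted 0.393). By week it was 0.66, 0.31 and -0.10 at 4, 6 and 8 weeks. The value of 4 weeks rests on star signals that were not detected, and so does that of the first CCL4 array of 6 weeks.

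At the scale used here the 2 probes of a member gave similar differences. Taken alone, the 2 probes of miR-29a gave scaled differences over all weeks of -0.63 and -0.70 on the log2 scale, those of miR-29b -0.55 and -0.61, those of miR-29c -0.90 and -0.89, and those of miR-29c* -0.62 and -0.65. At 4 weeks the miR-29c probes gave -1.59 and -1.55. Both probes of a member share the scale of their array, which adds the same shift to each. Without scaling, the differences over all weeks were 0.04 and -0.03 for miR-29a and 0.12 and 0.06 for miR-29b. For miR-29c they were -0.23 and -0.22, and for miR-29c* 0.04 and 0.02. The spots of a probe varied on an array by a coefficient of variation of 0.729% to 7.28% for miR-29a, miR-29b and miR-29c and of 10.05% to 87.8% for miR-29c*. The 2 probes of each miRNA lie on the same few bases, so they are not independent.

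Across the 8 arrays the scaled levels of miR-29a and miR-29b correlated with Pearson r = 0.976, those of miR-29a and miR-29c with 0.984 and those of miR-29b and miR-29c with 0.977. Without scaling these were 0.982, 0.940 and 0.904. The star strand correlated with miR-29c with r = 0.837 scaled and 0.790 unscaled. Of 129 other miRNAs, the 3 whose scaled levels were most like the mean of miR-29a, miR-29b and miR-29c were mmu-let-7g (r = 0.997), mmu-miR-148b (0.991) and mmu-miR-22* (0.988). The 3 most like miR-29c* were mmu-miR-345-5p (0.939), mmu-miR-185 (0.936) and mmu-miR-378* (0.933). Values of 1 array share its scale and its RNA, and these correlations are descriptions over 8 arrays.

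Other miRNAs linked in published work to repression of collagen, connective tissue growth factor or transforming growth factor beta signalling were set beside miR-29. Of 17 on this list 14 were tested, and 7 fell and 1 rose over all weeks, where 35.3% of the 133 tested fell and 13.5% rose. The median log2 fold change of the list was -0.48 against -0.32 over the 133 tested. The one that rose, mmu-miR-335-5p, was detected on 4 of 5 CCL4 arrays and on 0 of 3 olive oil arrays, so no fold is given. The lowest fold change was that of mmu-miR-146a, a regulator of inflammatory signalling (-0.87, limma adjusted p = 0.0118). Without scaling none of the list fell and 2 rose, where 0% of those tested fell and 25.6% rose. The median was then 0.19 against 0.35 over the 133 tested.

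Of 8 miRNAs linked to promotion of fibrosis 7 were tested, and 4 rose and 1 fell, with a median of 0.55, where 13.5% of all 133 rose, 35.3% fell and the median was -0.32. The largest were mmu-miR-199b* (1.46, limma adjusted p = 2.153e-04), of the miR-199 family, and mmu-miR-34a, a target of p53 (1.13, 5.235e-04). Without scaling 5 rose and none fell, where 25.6% of all rose. The direction of these 2 miRNAs was thus opposite to that of miR-29 on the same arrays at the scale used here. Of this list miR-199b*, miR-214 and miR-199a-5p, which rose, are also on the mesenchymal list below. The one that fell, miR-192, is also on the hepatocyte list.

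Of the cell type lists set beside the family, only that of hepatocytes had miRNAs called lower at the scale used here. In RNA of whole liver, fewer cells of a type and less RNA per cell cannot be told apart. All 4 hepatocyte miRNAs fell (median -0.63), where 35.3% of the 133 tested fell with a median of -0.32, and 2 of them, miR-122 and miR-194, are also on the matrix list. Their summed scaled signal was 2418 to 4278 with CCL4 and 5438 to 6074 with olive oil. Without scaling it was 22026 to 42231 and 28582 to 35256, and none of the 4 passed. Of 6 mesenchymal miRNAs 5 were tested and 4 rose (median 0.74) where 13.5% of those tested rose, mmu-miR-145 was not detected on any array, and the summed scaled signal was 30.6 to 50.3 against 22.4 to 29.4. Without scaling, 5 of the mesenchymal miRNAs rose, against 25.6% of those tested. None of 3 leukocyte, 2 endothelial and 2 red blood cell miRNAs passed. On the leukocyte list mmu-miR-150 was not detected on any array, and the 3 tested were detected on all 8 arrays. Summed scaled leukocyte signal was 44.3 to 138.6 with CCL4 and 58.5 to 95.6 with olive oil. For the endothelial pair it was 136.1 to 205.4 and 213.0 to 225.3, and for the red blood cell pair 374.9 to 952.6 and 532.4 to 1215. Without scaling the endothelial sums overlapped (888 to 2034 with CCL4 and 1060 to 1422 with olive oil). Of the leukocyte miRNAs mmu-miR-223 then rose (0.92, limma adjusted p = 0.0253), where 25.6% of those tested rose. The part of these cell types in the miR-29 values was not tested.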

How the data were processed

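RNA of 8 liver samples was hybridized to Agilent arrays. The authors deposited intensity values from Feature Extraction 10.5.1.1 (the methods name another version), background-subtracted, summed over the probes of a miRNA and without scaling between arrays. A deposited log2 table of the same signals, with signals under 1 set to 1, served as an alternative. Gene signals also carried a feature size factor of each array (0.6 on 5 arrays, 0.618 to 0.651 on 3 CCL4 arrays), and all olive oil arrays had 0.6.

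Each array was scaled to its 75th percentile over 567 mouse miRNAs, and values under a floor of 0.01 were then raised to it before log2. Percentile and floor are those of the methods, which apply the floor first; that sequence was among the alternatives. A miRNA was tested when detected on at least 3 arrays, which left 133. Limma 3.58.1 in R 4.3.3 fitted treatment with week as a factor, and a mean per group for single weeks and the interaction, with 2 residual degrees of freedom from the CCL4 pairs. P-values were adjusted over all 133 (Benjamini-Hochberg, threshold 0.05). Within-array differences used exact permutation tests. The fits and tests were tested on simulated data. Depth does not apply to arrays, and their number limits the precision.

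Named were the 4 members, the 3 miRNAs most like the main strands and the 3 most like the star strand, and the 2 largest fold changes of each fibrosis list. Members and lists were chosen with earlier results of these data known. Alternatives covered scale, floor, background, filter, variance trend, week term, the methods' test, the replicate block and each array left out. All arrays were on 1 slide and in 1 scan, so neither could be a block. Human samples were not analysed here.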

Additional observations from a re-analysis of the deposited data

Results flagged for a closer look

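The values of the miR-29c minus miR-29b difference on the 5 CCL4 arrays held 1 that lay apart from the others, that of 4 weeks at -0.81 against -0.34 to -0.24 on the other 4. The gap to its neighbour was 0.832 of the whole range, above Dixon's critical value of 0.71. It was the 1 of 12 sets of values tested in this way that did so, and chance puts about 1 in 20 sets above that value. The CCL4 array of 4 weeks also had the most miRNAs detected (158) and the lowest signal called detected (0.139). The part of these in the difference was not tested.

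For 2 pairs the difference between members changed in opposite directions between weeks in every CCL4 array of those weeks, and the difference between the weeks was not tested. For miR-29b minus miR-29a the change from the olive oil array of the week was -0.0038, 0.0438 and 0.165 at 4, 6 and 8 weeks. The first of these is far below the error of about 8% or more that the software gives for the signals. For miR-29c minus miR-29a the changes were -0.609, -0.169 and 0.0437 in the same weeks. The value of 8 weeks, on which the change of direction rests, is also below the error the software gives for these signals.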

How the results depend on the processing

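The fall of the family over all weeks depended on the scale and on the filter. Without scaling, the log2 fold changes of miR-29a, miR-29b, miR-29c and miR-29c* were -0.0098, 0.065, -0.22 and 0.033, and with the summed spot signals and no scaling, chosen after seeing the data, they were -0.068, 0.0063, -0.28 and -0.025. None passed (limma). The same held with normexp background correction (-0.086, -0.013, -0.26 and -0.0074), with control features as the scale (-0.24, -0.16, -0.45 and -0.19) and, with the fold changes unchanged (-0.68, -0.60, -0.89 and -0.64), without the filter on detection, which adjusts over 567 miRNAs. Quantile normalization left out miR-29a, miR-29b and miR-29c (-0.088, -0.032 and -0.56), cyclic loess miR-29a and miR-29b (-0.16 and -0.11), and the percentile over detected miRNAs miR-29c* (-0.44). Without a week term, and with the methods' t-test after Benjamini-Hochberg adjustment, miR-29b, miR-29c and miR-29c* did not pass (-0.56, -0.81 and -0.57), and after Bonferroni adjustment miR-29a (-0.62) did not either. The cause was not tested.

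At 8 weeks the difference turned positive without scaling in miR-29a (0.17), miR-29b (0.34), miR-29c (0.22) and miR-29c* (0.12), with normexp (0.072, 0.22, 0.11 and 0.013) and with summed spot signals and no scaling (0.11, 0.28, 0.16 and 0.057). Quantile normalization turned miR-29b at that week to 0.056 and gave an adjusted interaction p of 0.0273 for miR-29a. With the median as the scale miR-29a, miR-29b and miR-29c passed at 8 weeks (-0.53, -0.37 and -0.49, adjusted p = 0.0229, 0.0343 and 0.0343), where 29 of 133 miRNAs were called lower in place of 1. Over the 15 processing settings tried, the 4-week difference no longer passed in 6 for miR-29a, 7 for miR-29b and 4 for miR-29c, and the 6-week difference of miR-29c in 8.

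The count of 47 lower miRNAs became 10 with the percentile over detected miRNAs, 17 with quantile normalization, 18 with cyclic loess, 1 with control features, 16 without week, 23 and 1 with the methods' t-test after Benjamini-Hochberg and Bonferroni adjustment (61 unadjusted), and 0 without scaling (summed spot signals included), with normexp or without the filter. At an unadjusted p under 0.05 in limma the count was 65 without the filter, and 0 without scaling, with summed spot signals unscaled and with normexp. The count of 18 higher became 34 without scaling, 33 with summed spot signals unscaled, 11 with normexp or without week, 5 without the filter, and 10 and 0 with the methods' t-test (13 unadjusted).

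With 1 array left out, the ranges were -0.83 to -0.57 for miR-29a, -0.80 to -0.47 for miR-29b, -1.18 to -0.64 for miR-29c and -0.74 to -0.53 for miR-29c*, 6 to 62 lower miRNAs and 11 to 17 higher. There were 9 lower without the CCL4 array of 4 weeks, 22 without the first CCL4 array of 8 weeks, 7 when the 4-week control and 6 when the 6-week control was left out. There were 11 higher without the 6-week or the 8-week control. For the within-array differences they were 0.02 to 0.11 (miR-29b minus miR-29a), -0.23 to -0.09 (miR-29c minus miR-29a), -0.28 to -0.14 (miR-29c minus miR-29b) and 0.13 to 0.38 (miR-29c* minus miR-29c). With the replicate block the fold changes were -0.77, -0.71, -1.03 and -0.75, with 54 lower and 12 higher, and no call of a member changed. Only CCL4 arrays carry replicate number 2, so this block is partly tied to treatment, and calls kept under it add no support. The replicate numbers do not pair the arrays (correlation of same-numbered deviations 0.0508 over 133 miRNAs). Signals near background limit miR-29c*, which was detected on 5 of 8 arrays.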
